A study of Mus musculus with 20 samples.

Results

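Mitosis, spindle and kinetochore genes were followed across bladders and metastases of a mouse model of bladder cancer. The set is a list of 38 symbols, and a row of the expression table belonged to it where the platform annotation gave exactly 1 of these symbols. A row was found for 37 of the 38, among 30142 genes measured, and each of the 37 had 1 row. Ccnb1, the gene of cyclin B1, had no such row and was not analysed here. The list did not use the measured values, but it was drawn up with earlier results of these data known.

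RNA was measured on 20 Affymetrix whole-transcript arrays, with 4 metastases, 1 metastasis titled as a palbociclib sample, 3 treated bladders, 7 tumour bladders and 5 normal bladders. All groups, the normal bladders included, came from CKO mice on an FVB/N background, which lack p107 (Rbl1) per the labels and carry floxed alleles, that of Rb among them. Tumour bladders had been inoculated with an adenovirus that codes for Cre recombinase, which deletes the floxed alleles in the cells it reaches, so a tumour bladder also holds cells that kept them. Treated bladders were inoculated in the same way, and the mice then had palbociclib, an inhibitor of the kinases Cdk4 and Cdk6, at 150 mg/kg daily for 28 days, with 6 mg/kg of CDDP (cisplatin) each week. The labels give neither the organ a metastasis was taken from nor the sex or age of a mouse, and nothing says that each array is a separate animal, so p-values measure the spread between these samples.

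The proteins of these genes carry a cell through mitosis. Cyclin A2 and the B cyclins switch on Cdk1, kinetochores tie chromosomes to spindle microtubules, the spindle checkpoint holds anaphase until all are attached, and Cdc20 with the anaphase-promoting complex then releases it. Most of these genes are transcribed mainly in G2 and M phase and are kept low in resting cells by the DREAM complex, which contains p107 or its relative p130 and acts through a promoter element called CHR. In dividing cells B-Myb, FoxM1 and, at CCAAT boxes, NF-Y take part in their expression. In the adult bladder the urothelium divides rarely.

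The promoters of 6 members are shown because each holds both elements in the last 100 bases before the annotated start. RefSeq promoter entries on the GRCm38.p6 build, which cover 250 bases upstream to 50 downstream, were matched for 31 of the 37 measured members and for Ccnb1. Capitals mark CCAAT, written ATTGG where it lies on the other strand, and CHR as TTTGAA, written TTCAAA on the other strand. Each line runs 5′ to 3′ on the strand of the gene and ends at the base before the start. The windows are chr4:118437344-118437443 on the minus strand for Cdc20, chr10:69352913-69353012 on the minus strand for Cdk1, and chr19:37376282-37376381 on the plus strand for Kif11. They are chr7:80294376-80294475 on the plus strand for Prc1, chr11:99024190-99024289 on the minus strand for Top2a, and chr2:164769829-164769928 on the plus strand for Ube2c.
Cdc20: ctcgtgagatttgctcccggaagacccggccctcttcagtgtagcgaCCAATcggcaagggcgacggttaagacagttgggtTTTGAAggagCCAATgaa
Cdk1: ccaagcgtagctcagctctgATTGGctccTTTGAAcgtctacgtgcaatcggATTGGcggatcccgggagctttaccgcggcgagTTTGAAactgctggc
Kif11: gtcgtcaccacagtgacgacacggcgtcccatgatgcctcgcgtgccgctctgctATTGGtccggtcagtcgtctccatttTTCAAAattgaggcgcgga
Prc1: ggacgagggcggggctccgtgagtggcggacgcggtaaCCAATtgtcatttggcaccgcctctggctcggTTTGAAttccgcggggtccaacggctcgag
Top2a: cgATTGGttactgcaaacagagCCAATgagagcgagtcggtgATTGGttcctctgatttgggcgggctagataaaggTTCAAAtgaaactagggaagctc
Ube2c: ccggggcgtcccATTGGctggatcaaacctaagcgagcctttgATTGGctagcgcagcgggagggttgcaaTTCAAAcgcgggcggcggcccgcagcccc

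In all 6 printed windows, a CCAAT box lay 26 to 35 bases before the CHR element nearest the start, counted between first bases. Where a gene had several annotated starts, a match at any of them counted in the shares below. The spacing was 35 bases in Cdc20 and Top2a, 33 in Cdk1, 32 in Prc1, 28 in Ube2c and 26 in Kif11. Over the whole window, CHR letters were found in 24 of the 32 promoters (75.0%), against 20.23% of the 27025 genes with an entry. CCAAT was found in 25 of the 32 (78.12%), against 41.06% of all genes, and both in 21 (65.62%), against 7.97%. In the last 100 bases upstream, CCAAT stood in 71.88% of the 32 promoters against 21.61% of all, CHR in 21.88% against 6.76%, and both in 18.75% against 1.26%. A match describes these letters in this window and is not a site or a cause.

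**Figure D1:**
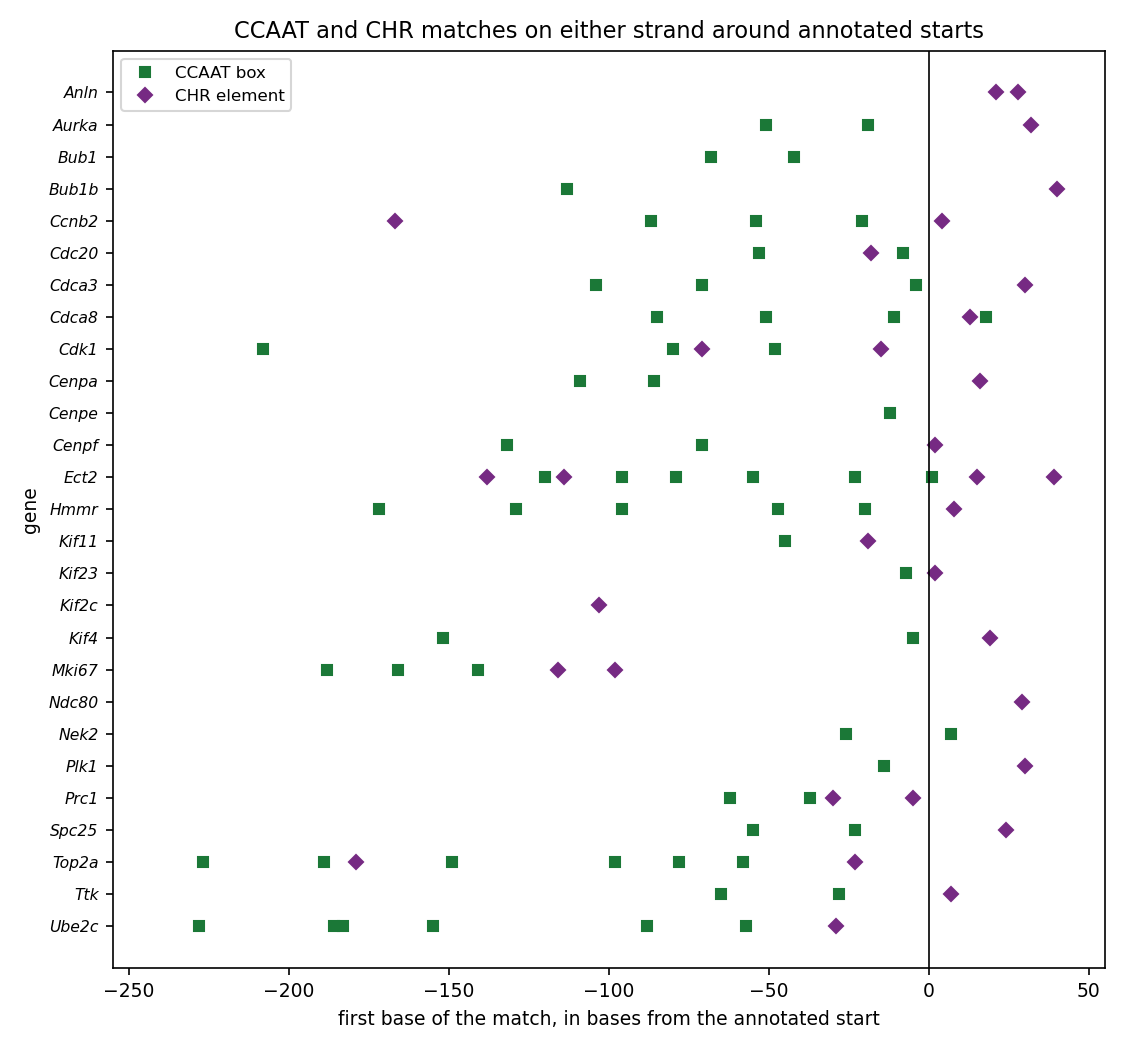
CCAAT (squares) and CHR (diamonds) matches on either strand in the promoter windows of the 27 measured members with at least 1 match. The x axis gives the first base of a match in bases from the annotated start (line at 0), and each row is a gene. Every annotated start of a gene is drawn, so the same letters can appear more than once, as for Prc1 (CCAAT at -62 and -37). CCAAT matches gather upstream of the start, while CHR matches lie on both sides of it.

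The authors deposited log2 levels normalised by RMA, and array medians lay between 5.11 and 5.48. RNA had been extracted with a kit meant for fixed, embedded tissue. A group of 8 arrays stood apart from the rest: metastases 3 and 4, tumour bladders 3, 4 and 5, and normal bladders 4, 5 and 6. Their spread in dim rows was above 0.30, and the deviations of their bright rows from the row means had a correlation below 0.25 with every other array. Tumour bladder 1 also had a spread above 0.30 (0.33). It was not counted among the 8, since its correlation with tumour bladder 2 was 0.654. The set of 8 was defined after the values were seen, so the 5 comparisons of the members are also given over the other 12 arrays. Those are metastases 1 and 2, the palbo metastasis, the 3 treated bladders, tumour bladders 1, 2, 6 and 7, and normal bladders 1 and 2. Rb1, whose floxed allele Cre removes, was at 5.82 to 6.23 in treated bladders and 5.45 to 6.45 in tumour bladders, against 5.78 to 6.32 in normal bladders, and these ranges overlapped. Rbl1 was at 6.32 to 8.30 in metastases, 6.71 in the palbo metastasis, 6.02 to 7.65 in treated bladders and 6.15 to 7.13 in tumour bladders, against 6.27 to 6.79 in normal bladders. Its row thus gave a signal that varied in mice labelled as lacking the gene, and since it is not known here whether its probes lie in the deleted part, it does not check the label. Xist, which silences an X chromosome in female cells, stood at 5.44, 5.73, 6.74 and 7.04 on metastases 1 to 4. It was at 6.44 on the palbo metastasis and at 7.10, 6.04 and 10.05 on treated bladders 1 to 3. On the tumour bladders it ran from 5.43 to 7.19. Normal bladders 1, 2, 4, 5 and 6 stood at 11.74, 11.71, 6.85, 7.07 and 6.89. On the 12 arrays, sex cannot be told apart from tumour or metastasis against normal.

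Averaged over the 37 genes, the mitosis level was highest on metastasis 1, tumour bladder 6 and treated bladder 3 and lowest on normal bladders 1 and 2 and tumour bladder 7. The mean log2 level was 6.51, 5.59, 5.70 and 5.66 on metastases 1 to 4, and 5.71 on the palbo metastasis. On treated bladders 1, 2 and 3 it was 5.31, 5.40 and 6.30. It ran from 5.24 (tumour bladder 7) over a median of 5.71 to 6.38 (tumour bladder 6) on the tumour bladders. Normal bladders 1, 2, 4, 5 and 6 stood at 5.10, 5.15, 5.66, 5.69 and 5.74. Each group that held over 1 array thus had a wide range, and all groups overlapped. Metastasis 1, tumour bladder 6 and treated bladder 3 also had the lowest medians over all rows (5.13, 5.12 and 5.11). The part of this in the mitosis levels of single arrays was not tested. In bulk RNA, fewer dividing cells and less of these RNAs per cell cannot be told apart.

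**Figure D2:**
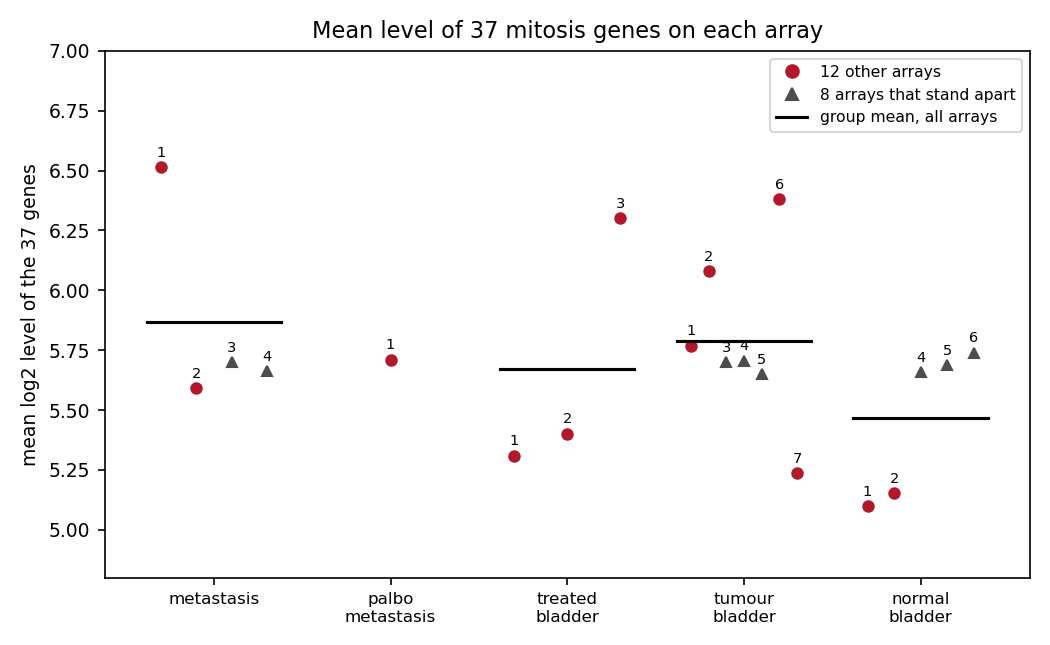
Mean log2 level of the 37 measured mitosis genes on each array, by group. Triangles are the 8 arrays that stand apart, circles the other 12, numbers the replicates and lines the group means. Metastasis 1 (6.51), tumour bladder 6 (6.38) and treated bladder 3 (6.30) are the highest points, and normal bladders 1 and 2 (5.10 and 5.15) the lowest.

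The same few arrays were high or low for most of the genes. Metastasis 1 was the highest of the 20 arrays for 21 of the 37 genes, tumour bladder 6 for 8, tumour bladder 2 for 3, tumour bladder 1 and treated bladder 3 for 2 each, and normal bladder 6 for 1, Melk. Normal bladder 1 was the lowest for 24 genes, normal bladder 2 for 7, tumour bladder 7 for 5 and treated bladder 1 for 1. Within the 12 arrays, metastasis 1 was among the highest 3 for 35 genes, tumour bladder 6 for 29 and treated bladder 3 for 25. These 3 arrays were exactly the highest 3 for 18 of the 37 members, against 5.29% of all 30142 genes. Normal bladders 1 and 2 were the lowest pair for 19 members, against 1.94% of all genes. For single arrays the share over all genes was not counted, so those counts cannot be set against a background. These array orders were looked up after the values were seen and are descriptions.

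The spread of the members also set the 12 arrays apart from the 8. The median SD of the 37 genes was 0.463 on the 12 arrays and 0.165 on the 8, and it was larger on the 12 for 36 of the 37. Over all 30142 genes the median SD was 0.265 on the 12 and 0.252 on the 8, and 15129 genes had the larger SD on the 12. The 1 exception among the members was Melk, a kinase gene of dividing cells, with an SD of 0.166 on the 12 and 0.179 on the 8. On the 8 arrays the member mean stayed between 5.65 and 5.74, whether the array was a metastasis, a tumour bladder or a normal bladder. Such flatness was not particular to the members. Smooth muscle markers averaged 6.58 to 6.67 on the 8 and 4.86 to 9.55 on the 12. Macrophage markers averaged 6.56 to 6.85 on the 8 and 5.73 to 8.73 on the 12. Xist stayed at 6.74 to 7.19 on the 8. These 8 arrays are part of the comparisons over all arrays.

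**Figure D3:**
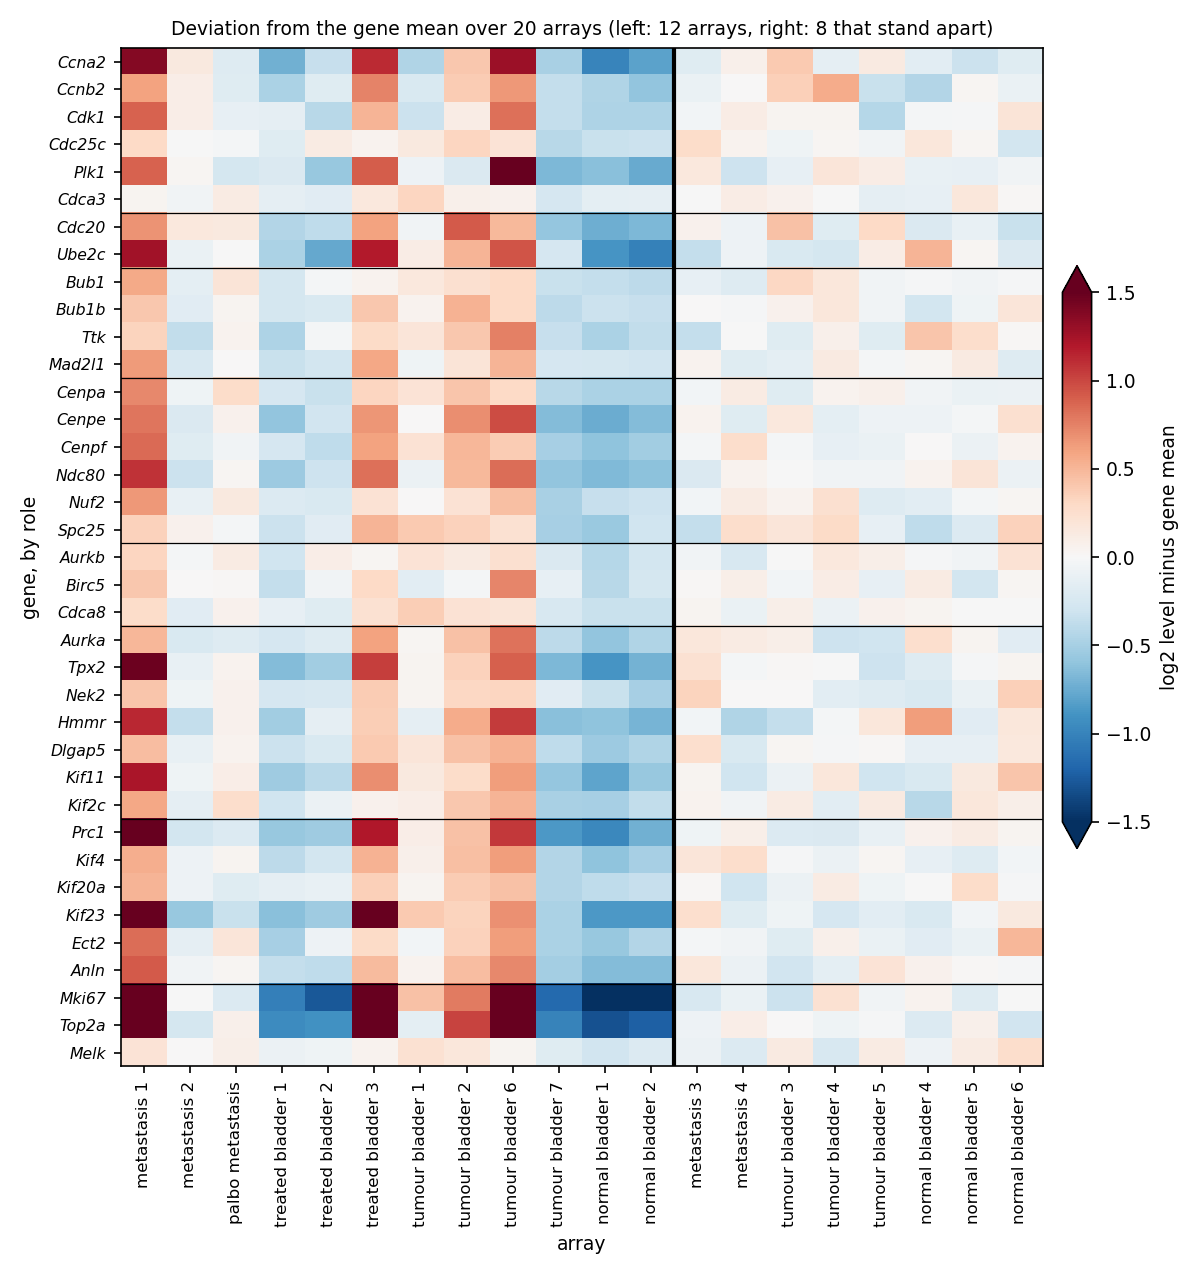
Log2 level of each mitosis gene minus its mean over the 20 arrays, with genes in rows by role and arrays in columns by group. Red is above and blue below the gene's mean. The columns of metastasis 1, tumour bladder 6 and treated bladder 3 are red over most rows, those of normal bladders 1 and 2 and tumour bladder 7 are blue, and the 8 arrays that stand apart are pale.

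Among the marks of proliferation, Mki67, the gene of the Ki-67 protein that coats mitotic chromosomes, had the widest range of the members. Its log2 level was 8.96, 6.41, 6.18 and 6.32 on metastases 1 to 4, 6.22 on the palbo metastasis, and 5.39, 5.15 and 8.67 on treated bladders 1 to 3. On tumour bladders it ran from 5.25 over a median of 6.65 to 8.25, and on normal bladders 1, 2, 4, 5 and 6 it was 4.58, 4.71, 6.47, 6.22 and 6.41. Over the 12 arrays its SD was 1.54 with a range of 4.37, and over the 8 its SD was 0.18. Treated bladder 3 lay beside metastasis 1, while treated bladders 1 and 2 lay beside tumour bladder 7. Top2a, the DNA topoisomerase that untangles sister chromatids, was the second most variable (SD 1.21 on the 12 arrays), and is given here after its values were seen. It was at 8.16, 6.08, 6.27 and 6.45 on metastases 1 to 4, at 6.43 on the palbo metastasis, and at 5.40, 5.44 and 7.93 on treated bladders 1 to 3. Tumour bladders ran from 5.35 over 6.33 to 8.16, and the 5 normal bladders were at 5.05, 5.13, 6.15, 6.42 and 6.06. The high and the low arrays were those of Mki67.

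Genes of mitotic entry were Ccna2, Ccnb2 and Cdk1, which form the cyclin and kinase pairs, Cdc25c, the phosphatase that activates Cdk1, the kinase Plk1, and Cdca3, which helps to remove the Cdk1 inhibitor Wee1. Ccna2 was at 7.53, 6.31, 5.98 and 6.24 on metastases 1 to 4, at 5.97 on the palbo metastasis and at 5.43, 5.80 and 7.28 on the treated bladders. It ran from 5.67 over 6.29 to 7.44 on tumour bladders and was at 5.16, 5.35, 6.00, 5.83 and 5.97 on normal bladders. Every tumour bladder but numbers 1 and 7 was above the highest normal bladder. Plk1, chosen after its values were seen, had its highest value on tumour bladder 6 (7.86), ahead of 6.92 on treated bladder 3 and 6.90 on metastasis 1. Treated bladders 1 and 2 had Plk1 at 5.79 and 5.44, and the palbo metastasis at 5.75. Cdca3 moved least of the entry genes, with an SD of 0.167 over the 12 arrays.

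The members that work with the anaphase-promoting complex were its activator Cdc20 and Ube2c, the enzyme that hands the first ubiquitin to its substrates. Both promoters are printed above. Cdc20 was at 6.30, 5.79, 5.69 and 5.56 on metastases 1 to 4 and at 5.78 on the palbo metastasis. Treated bladders 1 to 3 were at 5.19, 5.25 and 6.24, tumour bladders ran from 5.05 over 5.93 to 6.55, and normal bladders were at 4.91, 4.96, 5.42, 5.52 and 5.30. All 4 metastases and the palbo metastasis were above all 5 normal bladders, while tumour and normal bladders overlapped. Ube2c was at 7.43, 6.07, 5.81 and 6.10 on the metastases, 6.16 on the palbo metastasis and 5.69, 5.40 and 7.36 on the treated bladders. Its tumour bladders ran from 5.90 over 6.28 to 7.11, and its normal bladders were at 5.29, 5.15, 6.68, 6.20 and 5.95. Normal bladder 4 lay near tumour bladder 2 and above treated bladders 1 and 2, so the groups overlapped.

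Of the spindle checkpoint genes Bub1, Bub1b, Ttk and Mad2l1, the last codes for Mad2, which sequesters Cdc20. Mad2l1 was at 6.63, 5.75, 6.05 and 5.81 on metastases 1 to 4, at 6.01 on the palbo metastasis and at 5.66, 5.72 and 6.58 on the treated bladders. Tumour bladders ran from 5.74 over 5.97 to 6.51, and normal bladders stood at 5.73, 5.71, 6.02, 6.14 and 5.80. Metastasis 1, treated bladder 3 and tumour bladders 2, 4 and 6 were above the highest normal bladder, tumour bladder 4 only just. At the kinetochore, Cenpa is the histone that marks the centromere, Cenpe a motor, Cenpf a binding protein of microtubules, and Ndc80, Nuf2 and Spc25 are subunits of the Ndc80 complex, which grips the microtubule. Ndc80 was at 7.18, 5.78, 5.88 and 6.16 on the metastases, 6.13 on the palbo metastasis and 5.56, 5.79 and 6.92 on the treated bladders. It ran from 5.50 over 6.04 to 6.93 on tumour bladders, and was at 5.44, 5.48, 6.15, 6.29 and 6.02 on normal bladders. The groups overlapped, with the same 3 arrays highest.

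The chromosomal passenger complex, which corrects faulty attachments, was represented by the kinase gene Aurkb and by Birc5 (survivin) and Cdca8 (borealin). Cdca8 was at 6.52, 6.08, 6.28 and 6.14 on metastases 1 to 4, 6.31 on the palbo metastasis and 6.11, 6.05 and 6.47 on the treated bladders. Its tumour bladders ran from 6.00 over 6.32 to 6.61, and its normal bladders were at 5.91, 5.90, 6.28, 6.23 and 6.23. Its whole range over the 12 arrays was 0.70, with tumour bladder 1 highest. Of the spindle genes, Aurka is the kinase of the spindle poles, Tpx2 its activator, Nek2 a kinase that separates centrosomes, Hmmr and Dlgap5 bind spindle microtubules, Kif11 pushes the poles apart and Kif2c shortens microtubules. Aurka was at 6.79, 6.07, 6.46 and 6.41 on the metastases, 6.10 on the palbo metastasis and 6.04, 6.10 and 6.90 on the treated bladders. Tumour bladders ran from 5.90 over 6.32 to 7.11 and normal bladders were at 5.70, 5.85, 6.54, 6.33 and 6.13. Tumour bladders 2 and 6, metastasis 1 and treated bladder 3 were above every normal bladder.

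Genes of the spindle midzone and of cytokinesis were Prc1, which bundles antiparallel microtubules, the kinesin genes Kif4, Kif20a and Kif23, Ect2, which activates RhoA, and Anln, a scaffold of the contractile ring. Kif23 was at 8.62, 6.23, 7.05 and 6.61 on metastases 1 to 4, 6.46 on the palbo metastasis and 6.17, 6.27 and 8.32 on the treated bladders. It ran from 6.33 over 6.74 to 7.48 on tumour bladders and was at 5.93, 5.94, 6.57, 6.76 and 6.95 on normal bladders. Metastasis 1 and treated bladder 3 were above every tumour bladder. Kif23 was the third most variable member over the 12 arrays (SD 0.91), followed by Prc1 (0.86) and Ccna2 (0.84), and Cdca3 and Melk were the least variable (0.167 and 0.166).

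**Figure D4:**
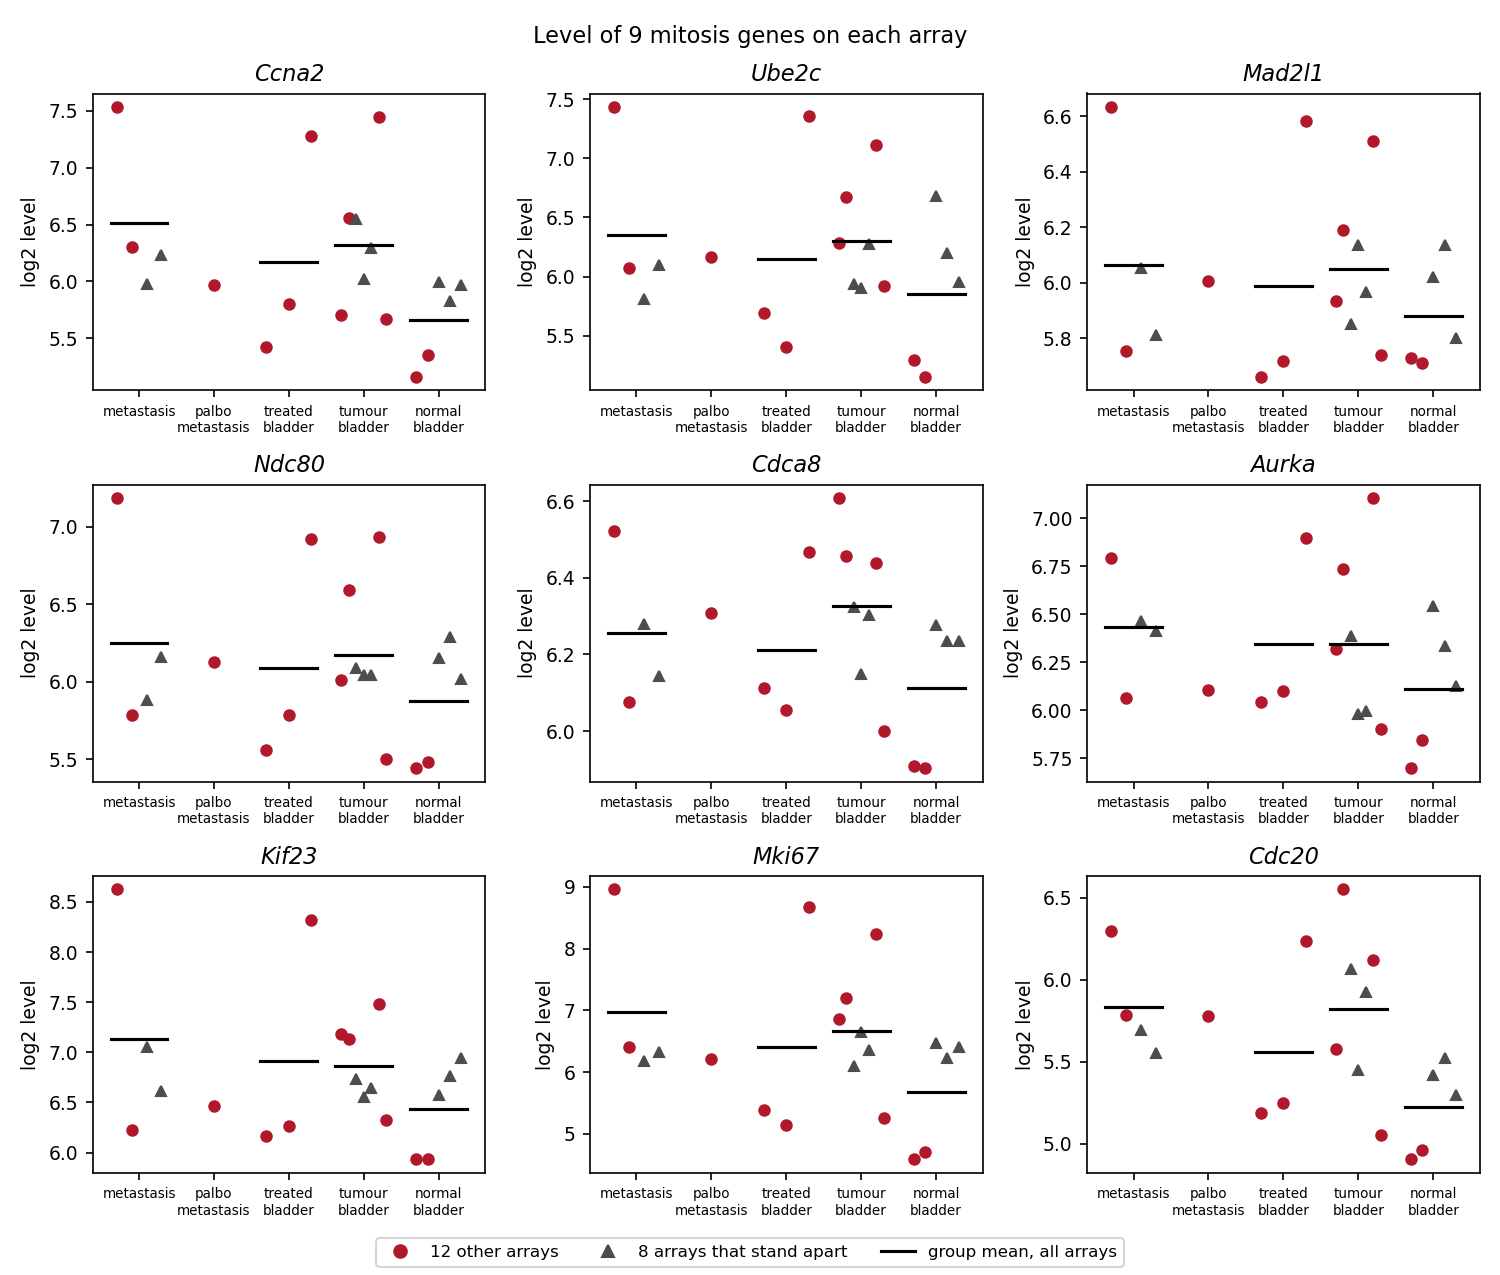
Log2 levels of 9 mitosis genes on every array, 1 panel per gene, with groups on the x axis. Triangles are the 8 arrays that stand apart, circles the other 12, and lines the group means over all arrays. Within the treated bladders 1 point, treated bladder 3, lies far above the other 2 for Mki67 (8.67 against 5.39 and 5.15) and Kif23 (8.32 against 6.17 and 6.27).

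Tumour against normal bladders asks what Cre inoculation of the bladder did to these genes. All 37 members had a higher mean in tumour bladders, where 53.1% of all genes did, with a median log2 difference of 0.28 against 0.01 over all genes. The differences ran from 0.06 for Cdca3 to 0.99 for Mki67. By role, the median was 0.82 for the 3 proliferation marks, 0.52 for Cdc20 with Ube2c, 0.32 for the midzone and 0.31 for mitotic entry. It was 0.30 for the kinetochore, 0.24 for spindle poles, 0.22 for the checkpoint and 0.21 for the passenger complex. None of the members passed limma's test with Benjamini-Hochberg adjustment over all genes at a threshold of 0.05, nor did any other gene (0% called), while 1281 genes had an unadjusted p under 0.05. At an unadjusted p under 0.05, 1 member was higher, where 2.39% of all genes were. In either direction, such a p was reached by 18 members with array weights (3064 genes) and by 6 with the replicate block (1771 genes). On the 2 groups alone it was reached by 5 members (1222 genes), against 1281 genes in the main fit. None of the members passed the adjusted threshold in these runs. No member had groups that did not overlap, where 0.0829% of genes lay wholly higher in tumour bladders.

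That member was Cdc20, with 5.82 ± 0.50 in tumour bladders (SD, n = 7) and 5.22 ± 0.28 in normal bladders (n = 5). Its log2 difference was 0.60 (SE 0.24, limma adjusted p = 0.998). Ccnb2 followed at 5.10 ± 0.44 against 4.64 ± 0.26, a difference of 0.46 (SE 0.23, limma adjusted p = 0.998). Kif4, a kinesin of the midzone, was at 5.45 ± 0.35 against 5.07 ± 0.25, a difference of 0.38 (SE 0.19, limma adjusted p = 0.998). None of these differences passed the threshold once p was adjusted over all genes.

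Over the 12 arrays, with 4 tumour and 2 normal bladders, the median difference was 0.67, against 0.06 over all genes, and again all 37 were higher, where 61.4% of genes were. Of the members, 24 lay wholly higher in tumour bladders, where 7.67% of genes did, and 5 had an unadjusted p under 0.05, where 1.48% of genes did. These 5 were Aurkb, Dlgap5, Nek2, Ube2c and Cdca8, each with a limma adjusted p = 0.993. The largest difference was that of Mki67, at 2.24. Within the 8 arrays that stand apart, the median difference was -0.01. On those arrays smooth muscle markers (6.58 to 6.67) and macrophage markers (6.56 to 6.85) did not separate the groups either. That median thus cannot tell whether the members differ between tumour and normal bladders.

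The tumour bladders of the 12 arrays were unlike each other. Tumour bladder 7 was below tumour bladders 1, 2 and 6 for 36 of the 37 members, where 21.6% of all genes were, with a median difference of -0.79. It was above both normal bladders 1 and 2 for 24 members, where 40.6% of genes were. Its luminal urothelium markers averaged 9.47 and its smooth muscle markers 9.55, while tumour bladder 6 had 5.41 and 5.39, and normal bladders 1 and 2 had 7.74 and 8.01 for urothelium and 8.54 each for smooth muscle. Tumour bladder 6 was above tumour bladders 1, 2 and 7 for 28 members, where 21.7% of genes were, and its fibroblast markers averaged 10.02. Over the groups, 10 of 10 smooth muscle markers were lower in tumour bladders (median -0.82, and -1.96 on the 12 arrays). Macrophage markers were higher for 10 of 10 (median 0.28, and 0.74 on the 12), neutrophil markers for 11 of 12 (0.34 and 0.76), and luminal urothelium markers lower for 9 of 11 (-0.23 and -0.86). None of these markers passed the adjusted threshold. The part of these tissue markers in the mitosis levels was not tested.

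Treated against tumour bladders asks how palbociclib with cisplatin bears on the same genes. The members' mean was lower in treated bladders for 34 of 37, where 57.4% of all genes were lower, with a median log2 difference of -0.12 against -0.02 over all genes. The exceptions were Kif23, Prc1 and Aurka, and the differences ran from -0.32 for Top2a to 0.05 for Kif23. No member passed limma's adjusted threshold and none had an unadjusted p under 0.05, where 0.159% of genes were lower at that level. No gene of the table passed (0% called), and 103 had an unadjusted p under 0.05. With array weights, 10 members and 2511 genes had an unadjusted p under 0.05, and none passed the adjusted threshold. No member lay wholly below the tumour bladders, where 0.0564% of genes did. The smallest p belonged to Bub1, at 5.28 ± 0.16 in treated bladders (SD, n = 3) and 5.47 ± 0.23 in tumour bladders (n = 7), a difference of -0.20 (SE 0.17, limma adjusted p = 1). Kif2c differed by -0.20 (SE 0.21) and Aurkb by -0.14 (SE 0.15), each with a limma adjusted p = 1. Without treated bladder 1 these 3 differences were -0.10 for Bub1, -0.11 for Kif2c and -0.02 for Aurkb.

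The 3 treated bladders did not share a level. Treated bladder 3 was above both treated bladders 1 and 2 for 35 of the 37 members, where 32.1% of all genes were. The median difference from their mean was 0.79 for the members and -0.10 for all genes. Xist was also higher on treated bladder 3 (10.05) than on treated bladders 1 and 2 (7.10 and 6.04). The part of sex in the mitosis levels was not tested. Without treated bladder 3 the median difference of treated from tumour bladders was -0.36, and without treated bladder 1 it was 0.06, so the direction rested on single arrays. Over the 12 arrays it was -0.17, with all 37 members lower, where 62.6% of genes were. On these arrays no member lay wholly below the tumour bladders, where 0.405% of genes did, and none was lower at an unadjusted p under 0.05, where 0.179% of genes were. On treated bladder 3 the luminal urothelium markers averaged 8.24 and smooth muscle markers 8.21, against 6.97 and 6.66 on treated bladder 1 and 7.29 and 7.32 on treated bladder 2. Skeletal muscle markers averaged 9.23 on treated bladder 1, and 5.32 and 5.27 on treated bladders 2 and 3. Over the groups, smooth muscle markers were higher in treated bladders for 10 of 10 (median 0.82) and luminal urothelium markers for 11 of 11 (0.46). Markers of macrophages were lower for 10 of 10 (-0.39), of neutrophils for 12 of 12 (-0.34), of T and NK cells for 11 of 11 (-0.13) and of B and plasma cells for 7 of 7 (-0.16). None of them passed the adjusted threshold, and their part in the mitosis levels was not tested.

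Against normal bladders, 35 of the 37 members were higher in treated bladders, where 46.7% of genes were, with a median of 0.15 against -0.01 over all genes. None passed limma's adjusted threshold or an unadjusted p under 0.05, where 0.209% of genes were higher. None lay wholly above the normal bladders, where 0.332% of genes did. Ccnb2 differed by 0.34 (SE 0.28), Ccna2 by 0.51 (SE 0.43) and Cdc20 by 0.34 (SE 0.30), each with a limma adjusted p = 1. Without treated bladder 3 these became -0.017 for Ccnb2, -0.047 for Ccna2 and -0.0031 for Cdc20, and the median over the members -0.08. Over the 12 arrays the median was 0.45 with all 37 members higher, where 52.9% of genes were. None had an unadjusted p under 0.05, where 0.186% of genes were higher at that level, and 29 members lay wholly above normal bladders 1 and 2, where 6.24% of genes did. Taken one by one against that pair of normal bladders, treated bladder 1 was higher for 29 members (37.8% of genes) and treated bladder 2 for 35 (43.9% of genes), with median differences of 0.15 and 0.27. The comparisons against tumour and against normal bladders share the treated arrays.

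Metastases against tumour bladders gave small differences on both sides of 0. Of the 37 members, 26 were higher in metastases, where 43.9% of genes were, with a median of 0.07 against -0.03 over all genes. The differences ran from -0.20 for Ttk, a checkpoint kinase, to 0.34 for Tpx2. None passed limma's adjusted threshold or an unadjusted p under 0.05, where 2.42% of genes were higher and 3.37% lower, and none lay wholly above the tumour bladders, where 0.123% of genes did. Cdk1 was at 5.63 ± 0.42 in metastases (SD, n = 4) and 5.35 ± 0.43 in tumour bladders (n = 7), a difference of 0.28 (SE 0.24, limma adjusted p = 0.891). Cdc25c differed by 0.13 (SE 0.14, limma adjusted p = 0.903) and Tpx2 by 0.34 (SE 0.35, limma adjusted p = 0.904). Without metastasis 1, Cdk1 differed by 0.07, Tpx2 by -0.016 and the median over the members was -0.14. Without tumour bladder 7 that median was -0.03, so its direction rested on single arrays. Over the 12 arrays, 31 members were higher, where 38.3% of genes were, with a median of 0.18. None of them reached an unadjusted p under 0.05, where 3.14% of genes were higher at that level, or lay wholly above the tumour bladders, where 4.73% of genes did. Of all genes, 3 (0.00995%) passed the adjusted threshold there, none of them a member.

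Against normal bladders, 36 of the 37 members were higher in metastases, where 47.3% of genes were, with a median of 0.34 against -0.01 over all genes. The exception was Ttk, at -0.07, and the largest difference was that of Mki67, at 1.29. None passed limma's adjusted threshold, and 4 had an unadjusted p under 0.05 with a higher mean, where 3.1% of genes did. Kif4 was at 5.59 ± 0.26 in metastases (SD, n = 4) and 5.07 ± 0.25 in normal bladders (n = 5), a difference of 0.52 (SE 0.21, limma adjusted p = 0.720). Cdc20 was at 5.83 ± 0.33 against 5.22 ± 0.28, a difference of 0.61 (SE 0.27, limma adjusted p = 0.720). Cenpa was at 6.23 ± 0.37 against 5.81 ± 0.21, a difference of 0.42 (SE 0.19, limma adjusted p = 0.721), and the 4th was Ccna2 at 0.85 (adjusted p = 0.721). With array weights, 16 members and 3907 genes had an unadjusted p under 0.05, and none passed the adjusted threshold. Only Cdc20 had metastases wholly above normal bladders, where 1.06% of all genes did. Without metastasis 1 the median over the members was 0.20 and Cenpa differed by 0.24.

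On the 12 arrays, with 2 arrays in each group, all 37 members lay wholly higher in metastases, where 22.2% of genes did, and the median difference was 0.80, with 47.6% of all genes higher. An unadjusted p under 0.05 was reached by 8 members, where 3.68% of genes were higher at that level, and no member passed the adjusted threshold, which 0.00995% of genes did. Mki67 differed by 3.04 (SE 1.27, limma adjusted p = 0.724) and Ube2c by 1.53 (SE 0.65, limma adjusted p = 0.729). On the same arrays 10 of 10 smooth muscle markers were lower (median -3.59) and 10 of 10 macrophage markers were higher (2.26), and the Xist levels of the groups were as far apart as given above. The part of these markers in the mitosis levels was not tested. Within the 8 arrays that stand apart, the median was 0.03 against normal bladders and -0.04 against tumour bladders. Smooth muscle and macrophage markers did not separate the groups on those arrays either, so these medians cannot tell whether the members differ. All 3 comparisons with normal bladders share those controls, so their values are not independent of each other.

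**Figure D5:**
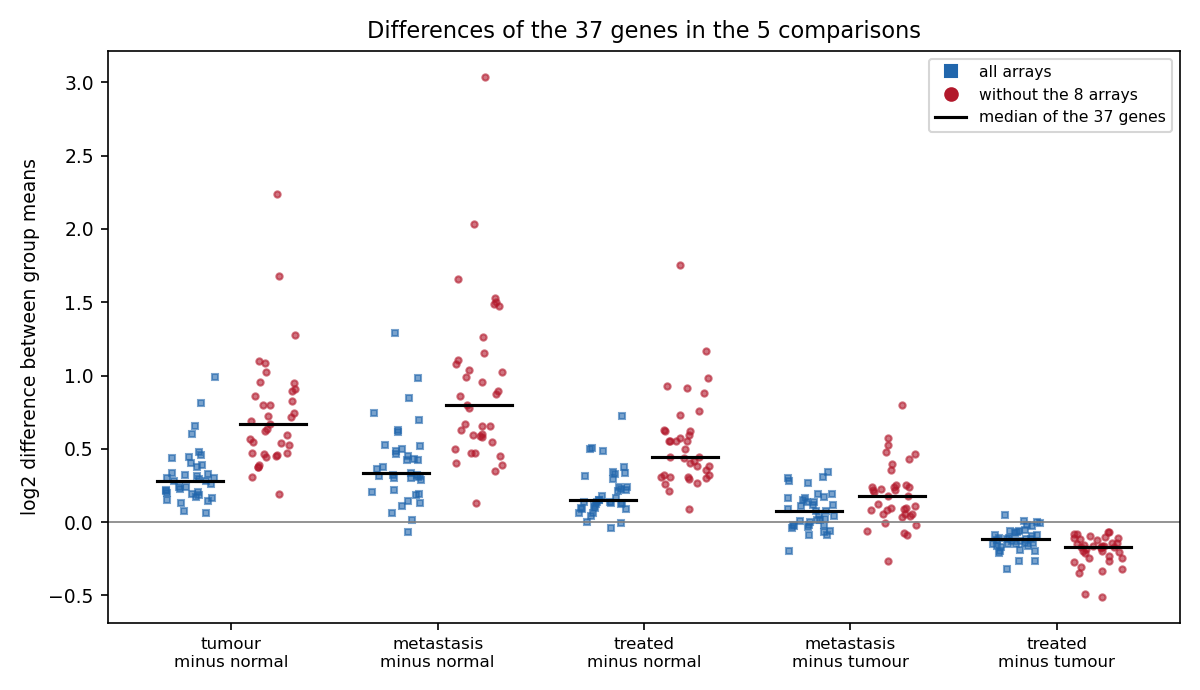
Log2 difference of each mitosis gene in the 5 comparisons, over all 20 arrays and over the 12 arrays. Each point is a gene, short lines are medians of the 37 genes and the line at 0 marks no difference. All 37 points of tumour minus normal lie above 0, with a median of 0.28 over all arrays and 0.67 over the 12, and those of treated minus tumour lie close to 0 with medians of -0.12 and -0.17.

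The 2 metastases of the 12 arrays differed from each other. Metastasis 1 was above metastasis 2 for all 37 members, where 41.7% of genes were, with a median difference of 0.76. Metastasis 2 was in turn above both normal bladders 1 and 2 for all 37, where 41.4% of genes were, with a median difference of 0.37. Macrophage markers averaged 8.73 on metastasis 1 and 7.81 on metastasis 2, and liver markers 6.13 and 7.49, with all other arrays between 4.76 and 5.84 for liver. The part of these cells in the mitosis levels was not tested.

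The palbo metastasis is a single array and has no replicate check. It was below metastasis 1 for 36 of the 37 members, where 40.5% of genes were, and above metastasis 2 for 28, where 56.2% of genes were. It was above both normal bladders 1 and 2 for all 37 members, where 48.3% of genes were, with a median difference of 0.53. Its macrophage markers averaged 8.24 and its neutrophil markers 7.12.

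Other genes of mitosis were grouped in 3 lists, none of which holds a member. In tumour against normal bladders, 33 of 39 other kinetochore and centromere genes were higher (median 0.16), 31 of 36 other kinesin, spindle and cytokinesis genes (0.17) and 31 of 37 other genes of mitotic entry and exit (0.13), where 53.1% of all genes were higher. No gene of these lists passed limma's adjusted threshold. An unadjusted p under 0.05 with a higher mean was reached by 0, 3 and 2 of them, where 2.39% of all genes reached it. Spag5, a spindle protein gene, differed by 0.28 (limma adjusted p = 0.998) and Racgap1, the partner of Kif23 in cytokinesis, by 0.28 (limma adjusted p = 0.998). Over the 12 arrays the 3 medians were 0.44, 0.40 and 0.23.

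In treated against tumour bladders, the same 3 lists had 34 of 39, 31 of 36 and 22 of 37 genes lower, with medians of -0.07, -0.08 and -0.03, where 57.4% of all genes were lower, and none passed. In metastases against tumour bladders, 21 of 39, 23 of 36 and 26 of 37 were higher, with medians of 0.02, 0.05 and 0.08, where 43.9% of all genes were higher, and none passed. Against normal bladders, metastases had 33 of 39, 31 of 36 and 34 of 37 higher, with medians of 0.17, 0.19 and 0.16, where 47.3% of all genes were higher. Of them, 1, 4 and 3 genes had an unadjusted p under 0.05 with a higher mean, where 3.1% of all genes did. The smallest p values there were those of Troap (0.51, limma adjusted p = 0.717), which acts at the spindle, and Gmnn (0.39, limma adjusted p = 0.717), the gene of geminin, which blocks renewed licensing of DNA. In treated against normal bladders, 30 of 39, 30 of 36 and 31 of 37 were higher, with medians of 0.05, 0.08 and 0.10, where 46.7% of all genes were higher.

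Genes of DNA replication, which are used in S phase, gave the same signs as the mitosis genes. In tumour against normal bladders 33 of 34 were higher (median 0.24), where 53.1% of all genes were. In treated against tumour bladders 33 of 34 were lower (-0.09), where 57.4% of all genes were. In metastases against tumour bladders 25 of 34 were higher (0.07), where 43.9% of all genes were. In treated and in metastatic samples against normal bladders, 30 and 33 of 34 were higher, with medians of 0.15 and 0.28. Of all genes, 46.7% and 47.3% were higher there. Both sets of genes were measured on the same arrays, so their signs are not independent. None of the replication genes passed limma's adjusted threshold in any of the 5 comparisons. Their mean level was 6.48 on metastasis 1, 6.37 on treated bladder 3 and 6.42 on tumour bladder 6, against 5.38 and 5.40 on normal bladders 1 and 2.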

How the data were processed

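The authors deposited 1 table of log2 levels made from 20 arrays with RMA in Affymetrix Expression Console, per the submitters' processing notes, which name no version. The base of the logarithm is not stated and was taken as 2, as RMA gives. Values ran from 2.16 to 22.0, and 96 to 222 rows per array exceeded the level of 16, the most that log2 of a 16-bit scan can give. How these arose is not stated, so the scale is not settled for such rows; the highest value of a member was 8.96. Of 65956 rows, 30604 had exactly 1 symbol, and the row with the highest mean was kept per gene, which left 30142 genes. A genome build is not given in the sources used here. Groups came from the sample titles. A linear model with 5 groups was fitted in limma 3.58.1 (R 4.3.3), two-sided, with Benjamini-Hochberg adjustment over all 30142 genes and a threshold of 0.05; the palbo metastasis was a group of its own and not compared. Precision is limited by how many arrays a group has. The procedure was tested on simulated data. Summaries and motif searches used Python 3.11.15.

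Members, lists and the array sets were chosen with earlier results of these data known. Levels are given for the member of highest mean in each of 8 roles and for Mki67 and Cdc20, and in each comparison for the 3 members with the smallest p. The fit was repeated with each array left out, without the 8 arrays, within them or with them as a term, with the replicate number as a block, with array weights, and on the groups of 1 comparison alone. It was also repeated after a second quantile normalisation, median centring, averaging a gene's rows or a filter at 5.1 (34 of 37 members above it), and with the palbo metastasis among the metastases.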

Additional observations from a re-analysis of the deposited data

Results flagged for a closer look

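Of 30 groups of values checked in metastases, tumour bladders and normal bladders, 2 held an array far from its group. The treated bladders were not checked. The limit used is passed by chance in about 1 in 20 groups, and the 2 are not independent, since Mki67 is part of the mean and both lie on metastasis 1. The mean of the 37 mitosis genes was 6.513 on metastasis 1, and Mki67 was at 8.96 there, both far above the other 3 metastases. Of those, metastases 3 and 4 are among the 8 arrays that stand apart. The palbo metastasis was used in none of the main comparisons. On it, 2 of 10 values checked lay above all 5 normal bladders, Cdca8 at 6.308 and Cdc20 at 5.78. Of the 37 members, 9 lay above all normal bladders on that array, where 21.3% of all genes did.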

How the results depend on the processing

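No member passed the adjusted threshold in any comparison under any alternative run. Without the 8 arrays that stand apart, the median member difference was 0.67 for tumour minus normal bladders and 0.80 for metastasis minus normal bladders, and 3 genes, none a member, passed for metastasis minus tumour and 3 for metastasis minus normal bladders; on the 2 groups alone 1 gene passed for the last. The cause was not tested. With each array left out in turn, Tpx2 ran from -0.016 to 0.51 for metastasis minus tumour bladders. For treated minus normal bladders, Ccnb2 ran from -0.017 to 0.59, Ccna2 from -0.047 to 0.88 and Cdc20 from -0.0031 to 0.52, each lowest without treated bladder 3 and highest without treated bladder 1. The member medians ran from 0.19 to 0.37 for tumour minus normal, -0.36 to 0.06 for treated minus tumour, -0.14 to 0.18 for metastasis minus tumour, -0.08 to 0.29 for treated minus normal and 0.20 to 0.46 for metastasis minus normal bladders. With the replicate block the medians were 0.38, -0.12, 0.07, 0.25 and 0.47 in the same order, and the block changed no call. Deviations of same-numbered samples had correlations between -0.506 and 0.33 across genes, so the numbers were not taken as pairs. With array weights the medians were 0.41 for tumour minus normal, 0.41 for metastasis minus normal, -0.33 for treated minus tumour, 0.08 for treated minus normal and 0.05 for metastasis minus tumour bladders, and the last was 0.13 with arrays centred. With dim genes left out, 34 of the 37 members remained to be tested. No depth exists for arrays, and with 2 to 7 arrays per group their number limits what could pass.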
